A study of Mus musculus with 8 samples.

Results

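Major urinary proteins (MUPs) are small secreted lipocalins, proteins with a barrel-shaped pocket that carries small lipophilic molecules, and in the mouse most of their mRNA comes from the liver. They leave the hepatocyte through the blood, pass the kidney into urine and there hold and slowly release volatile pheromones. Male mice make far more than females, and growth hormone pulses acting through STAT5, androgens, glucocorticoids and thyroid hormone are known to maintain the hepatic level, which has also been tied to glucose and lipid metabolism. The 10 genes described here, Mup1, Mup2, Mup3, Mup7, Mup10, Mup11, Mup12, Mup19, Mup20 and Mup21, were chosen by symbol, each matched to 1 Ensembl identifier, out of 38283 rows of the deposited table. All 10 passed the filter on low values (above 1 in at least 1 library), which 11634 rows passed. They are 10 of the 48 rows that carry a Mup symbol in the annotation, of which 21 are protein-coding and 27 are pseudogenes.

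Polyadenylated liver mRNA was sequenced from male C57BL/6 mice with loxP sites around exons 4 and 5 of Rora, the gene of the nuclear receptor RORα. Control mice (RORα f/f) carried the floxed alleles without Cre, and RORα LKO mice (Alb-cre;RORa f/f) carried in addition Cre recombinase under the albumin promoter, which is active in hepatocytes, so that other liver cells keep the gene. Mice were fed a control diet (CD) or a high-fat diet (HFD, 60% of calories from fat) for 10 weeks from 8 weeks of age. Each of the 4 groups had 2 libraries, each made from livers of 2 mice that had been combined, so that a group covers 4 mice. The deposited values are FPKM from Cufflinks, that is, fragments relative to transcript length and to the mapped total, a level per length, and the read depth of the libraries is not in the table.

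The target gene did not separate the labels on the HFD: Rora was at 8.85 and 8.59 FPKM in the CD f/f pair, 7.96 and 8.18 in the CD LKO pair, 7.56 and 7.86 in the HFD f/f pair and 7.30 and 8.02 in the HFD LKO pair (LKO against f/f on the HFD, log2 difference 0.01, SE 0.07, limma adjusted p = 0.974). A gene-level value includes exons outside the deleted part, so that it is a weak check. By other assays, the study reported a marked loss of RORα mRNA and protein in liver and primary hepatocytes of LKO mice. The libraries are named by their labels here, as the CD f/f, CD LKO, HFD f/f and HFD LKO pairs. Albumin itself was listed at exactly 0 in 4 of the 8 libraries, although it is the defining hepatocyte gene, so that a 0 in this table can be a failed estimate. These were the first CD LKO library, the second HFD f/f library and both HFD LKO libraries, so that the zeros were uneven between diets and labels. The first HFD f/f library, the only HFD library with a value, was at 30681 FPKM. What the failed estimates did to other genes was not tested. No Mup gene described here was listed at 0 in any library. Markers of salivary or lacrimal gland (4 of 4), glands that also make MUPs, and of kidney (3 of 3) were at 0 in all 8 libraries.

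All 10 genes lie on the minus strand of chromosome 4 of GRCm38, between Mup7 and Mup21 (chr4:60066469-62150863), a stretch of 2.08 Mb that is an array of recent gene copies. Mup3 (chr4:62083476-62087342), Mup20 (chr4:62050234-62054158) and Mup21 (chr4:62147932-62150863) sit together at its end. Mup20 encodes darcin, a pheromone protein of male urine that attracts females. The other 7 belong to the crowded middle of the array, namely Mup7 (chr4:60066469-60070475), Mup2 (chr4:60135932-60154289), Mup1 (chr4:60498012-60501960), Mup10 (chr4:60578260-60582199), Mup11 (chr4:60658466-60662411), Mup12 (chr4:60737383-60741326) and Mup19 (chr4:61778324-61782269). In the GENCODE M21 transcripts the coding sequence ran from 540 to 552 bases (180 to 184 codons without the stop). Between any 2 of these 7 central genes the coding sequences were 98.3% to 99.6% identical over 21 pairs, with 2 to 9 differing positions in the whole reading frame. Each central gene differed from 1 or more other Mup genes by at most 4 positions, and Mup11 and Mup19 each had a copy, Mup18 and Mup9, that differed at 1 position. Mup3, Mup20 and Mup21 were 82.1% to 91.3% identical to the central genes over 21 pairs, and 86.6% to 94.7% to one another.

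A stretch of 90 coding bases of exon 2 shows how little distinguishes the central copies and how clearly the other 3 genes stand off. Lower case marks bases shared with Mup10, and capitals mark bases that differ from it. Mup10 (chr4:60581559-60581648), Mup7 (chr4:60069771-60069860), Mup20 (chr4:62053518-62053607) and Mup3 (chr4:62086838-62086927) are shown 5′ to 3′ along the transcript. All 4 stretches lie on the minus strand.
Mup10: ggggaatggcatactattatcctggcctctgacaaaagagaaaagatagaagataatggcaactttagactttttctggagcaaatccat
Mup7: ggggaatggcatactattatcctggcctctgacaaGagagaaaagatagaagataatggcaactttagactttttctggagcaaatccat
Mup20: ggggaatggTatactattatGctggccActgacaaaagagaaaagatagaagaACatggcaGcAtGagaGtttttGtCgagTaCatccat
Mup3: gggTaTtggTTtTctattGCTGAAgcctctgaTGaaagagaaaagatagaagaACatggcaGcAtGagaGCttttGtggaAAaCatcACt
Mup1, Mup2, Mup11, Mup12 and Mup19 had the same 90 bases as Mup10, so that a read from this stretch could have come from any of the 6. Mup7 differed at 1 base, Mup20 at 13 bases, and Mup3 and Mup21 at 26 bases each.

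The same contrast held over whole transcripts. When each transcript was read in windows of 100 bases, 97.1% of the windows of Mup3, 95.5% of those of Mup21 and 61.2% of those of Mup20 occurred in no other Mup gene. For the 7 central genes this share was 26.7% for Mup10, 22.5% for Mup12, 16.5% for Mup11, 12.9% for Mup7, 12.8% for Mup1, 2.66% for Mup2 and 0% for Mup19. Some windows were shared by 15 Mup genes. The read length is not given in the sources used here, and with windows of 50 bases the shares ran from 84.4% for Mup3 to 0% for Mup2 and Mup19. The values of the central genes are uncertain one by one, since the authors' estimation could divide shared reads between copies, and the sum over copies is given beside them. Of the 10 genes, 7 had an entry in the RefSeq promoter table (GRCm38.p6), and the 250 bases before the start were searched on both strands. None of the 7 held the nuclear receptor core motif AGGTCA, which 4607 of all 32851 promoters in the table held in a stretch of that length, or its variant GGGTCA, which 3826 held. None held the STAT motif TTCNNNGAA, which 2306 promoters held, or the TATA box letters TATAAA, which 4063 held. None of these motifs contains another. No match says only that these letters are not in these windows. The similar letters TATATAAG, which were not searched for, stood in the last 120 bases before the start of Mup2, Mup3, Mup10, Mup19 and Mup21.

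**Figure D1:**
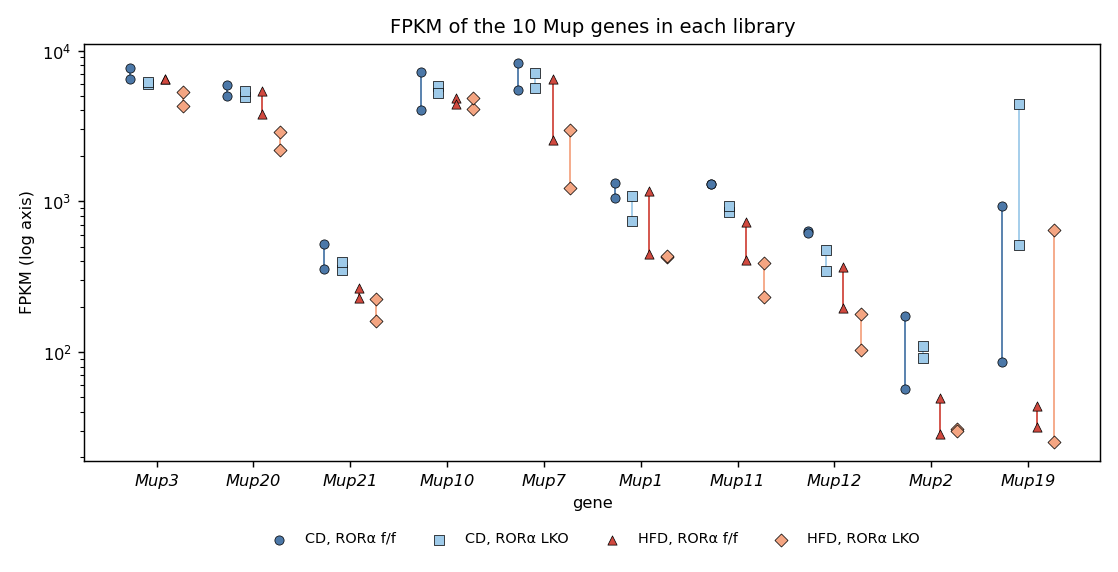
FPKM of each Mup gene (log axis) in the 8 libraries, with 1 symbol per library, a line joining the 2 libraries of a group, and colour and shape giving diet and genotype label. Mup3, Mup20, Mup21 and Mup10 have short lines, Mup19 spans 25.2 to 4402 FPKM, and for Mup11, Mup2 and Mup21 every HFD symbol lies below every CD symbol.

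Among liver genes the MUPs were near the top. By mean FPKM over the 8 libraries Mup3 ranked 15th of all rows with 6104 FPKM, Mup10 18th with 5048, Mup7 20th with 4957 and Mup20 28th with 4414. After a gap came Mup19 with 834 FPKM, Mup1 with 832, Mup11 with 766, Mup12 with 364, Mup21 with 312 and Mup2 with 70.9. Neighbours in this order overlapped in their library values throughout, whereas Mup3, Mup10 and Mup20 were in every library above the highest value of Mup1, Mup11, Mup12, Mup21 and Mup2. Together the 10 genes made up 1.98% to 3.93% of the summed FPKM of a library and 66.2% to 87.0% of the FPKM of all Mup rows.

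Copies with little sequence of their own also varied most between the 2 libraries of a group. The SD between replicates on the log2(FPKM + 1) scale, pooled over the 4 groups, was 0.15 for Mup3, 0.25 for Mup20, 0.28 for Mup21 and 0.31 for Mup10. It rose to 0.40 for Mup11, 0.45 for Mup12, 0.54 for Mup1, 0.63 for Mup2 and 0.69 for Mup7, and to 2.31 for Mup19. For comparison, over the 739 tested genes with a mean FPKM of 100 or more the median was 0.09 and the 95th percentile 3.55, above the value of Mup19. Across the 20 protein-coding Mup genes tested, Spearman's rho between the share of unique windows and this SD was -0.62, a description across genes that share reads, libraries and ancestry. The summed FPKM of the 10 genes, to which Mup3 and Mup20 add much, had an SD of 0.19 on the log2 scale. The sum of the 7 central genes alone had an SD of 0.41. This was above those of Mup10 and Mup11 and below those of Mup12, Mup1, Mup2, Mup7 and Mup19. That sum leaves out near-identical copies such as Mup9 and Mup18. Over the 45 Mup rows other than Mup3, Mup20 and Mup21 the SD of the sum was 0.43.

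**Figure D2:**
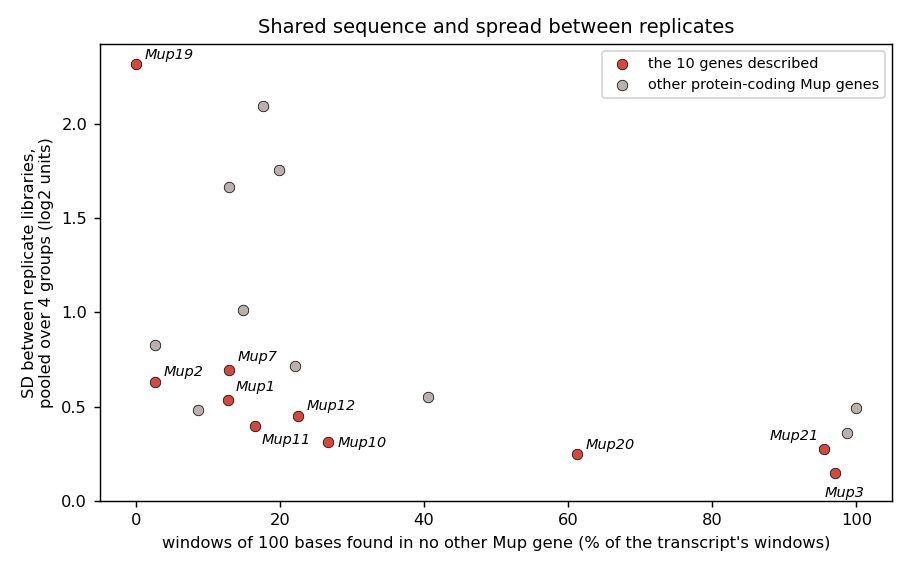
Share of 100-base transcript windows found in no other Mup gene (x axis, percent) against the SD between replicate libraries pooled over 4 groups (y axis, log2 units), for the 20 protein-coding Mup genes tested. Mup3 and Mup21 sit at the lower right, with over 95% unique windows, and Mup19 at the upper left, with 0% unique windows and an SD of 2.31.

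The first question was whether the HFD changed MUP mRNA. On the HFD the summed FPKM of the 10 genes was lower than on the CD under both genotype labels, and 4 of the genes, Mup2, Mup11, Mup12 and Mup21, fell by 0.76 to 1.46 on the log2 scale when both labels were averaged. The sum was 27078 and 31166 FPKM in the CD f/f pair, 29035 and 27412 in the CD LKO pair, 25723 and 18622 in the HFD f/f pair and 14521 and 16048 in the HFD LKO pair. All 4 HFD libraries were below all 4 CD libraries, and the HFD mean was 0.65 of the CD mean. This separation rested on Mup19 in 1 library: without that gene the first HFD f/f library, at 25679 FPKM, was above the first CD LKO library, at 24633 FPKM, and the ratio was 0.68. The diets also overlapped for Mup3, Mup20 and Mup21 summed (ratio 0.77) and for the 7 central genes summed (ratio 0.57). Under the f/f label the means were 29122 ± 2891 on the CD and 22173 ± 5021 on the HFD (SD, n = 2 libraries each), a ratio of 0.76, and under the LKO label 28223 ± 1148 and 15285 ± 1080 (SD, n = 2 libraries each), a ratio of 0.54. The sum is of deposited FPKM without normalization, and no p is given for it. The ratio under the f/f label was 0.88 without the second HFD f/f library. It was also nearer to 1 when libraries were scaled to the summed FPKM of all rows but the Mup rows. In whole liver, fewer hepatocytes and less mRNA per hepatocyte cannot be told apart.

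**Figure D3:**
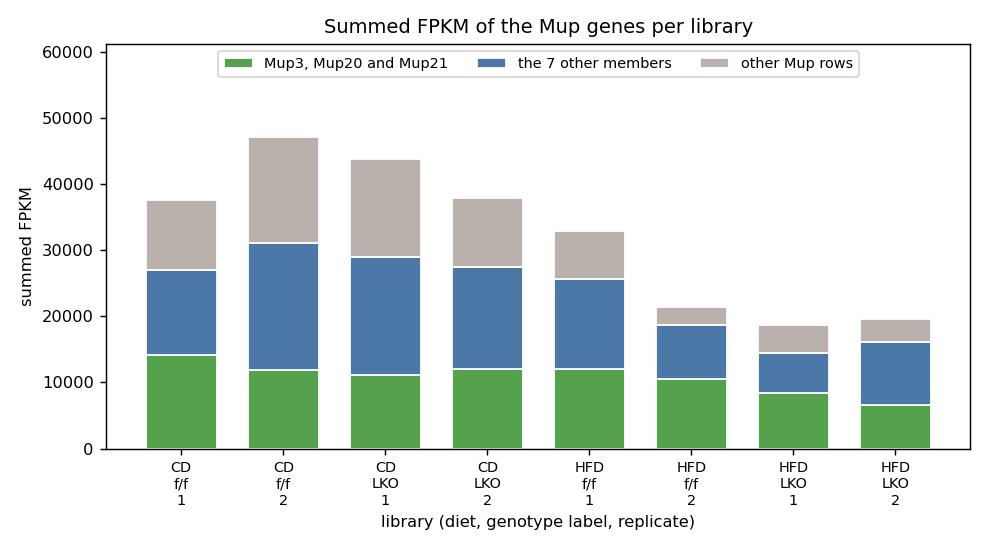
Summed FPKM of Mup rows in each of the 8 libraries, stacked from the bottom as Mup3, Mup20 and Mup21, the 7 other genes described, and the 38 other Mup rows. The full bars reach 37668 to 47091 on the CD and 18754 to 32904 on the HFD, and the 2 upper parts shrink more than the lowest.

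Among the tested genes, 4 of the 10 passed an adjusted p of 0.05 for HFD against CD averaged over genotypes, all lower, beside 9.89% of the 11634 genes called in either direction and 4.86% called lower (limma, Benjamini-Hochberg over all genes tested). The median log2 difference of the 10 genes was -0.80 and that of all genes 0.01, and 9 of the 10, all but Mup10, had a negative value, beside 47.3% of all genes. Without normalization Mup10 was negative too. Over all genes 565 were lower and 586 higher, and without normalization 703 were lower and 397 higher. By deposited FPKM, 3 of the 10 genes had every HFD library below every CD library, which 10.3% of the tested genes showed. Mup2, Mup11 and Mup12 are central copies with 2.66%, 16.5% and 22.5% unique windows of 100 bases. Their values depend on how shared reads were divided, so that they are not separate observations. The same limit holds for every count of Mup genes set beside a share of all genes.

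Mup11 encodes one of the central urinary MUPs. Its FPKM was 1307 and 1293 in the CD f/f pair, 844 and 930 in the CD LKO pair, 727 and 405 in the HFD f/f pair and 232 and 387 in the HFD LKO pair. The groups did not overlap by diet, and within each diet the LKO-labelled libraries were the lower. The log2 difference between diets was -1.31 (SE 0.22, adjusted p = 0.0184), between -1.51 and -1.10 over the other settings with adjusted p from 0.00687 to 0.0741.

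Mup12, another central copy, ran in parallel. It was at 634 and 617 FPKM in the CD f/f pair, 342 and 476 in the CD LKO pair, 365 and 195 in the HFD f/f pair and 104 and 178 in the HFD LKO pair. Here 1 HFD library lay above 1 CD library, and the other 3 HFD libraries lay below all CD libraries. The difference was -1.27 (SE 0.25, adjusted p = 0.0281), with adjusted p from 0.0129 to 0.0953 over the other settings.

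Mup2 was the least abundant of the 10 genes. Its FPKM was 173 and 56.4 in the CD f/f pair, 90.7 and 109 in the CD LKO pair, 49.3 and 28.7 in the HFD f/f pair and 30.8 and 29.7 in the HFD LKO pair. All HFD values were below all CD values, although the 2 CD f/f pair differed 3.06-fold. The difference was -1.46 (SE 0.34, adjusted p = 0.0437), with adjusted p from 0.0225 to 0.134 over the other settings.

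Of these 4 genes Mup21 had by far the most sequence of its own. It was at 517 and 355 FPKM in the CD f/f pair, 347 and 393 in the CD LKO pair, 229 and 266 in the HFD f/f pair and 226 and 161 in the HFD LKO pair. The diets did not overlap, and the difference was -0.76 (SE 0.16, adjusted p = 0.0329), with adjusted p from 0.0163 to 0.110 over the other settings. Its close relative Mup3, with as much sequence of its own, showed no comparable difference.

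Mup3 was at 7690 and 6436 FPKM in the CD f/f pair, 5950.3 and 6220 in the CD LKO pair, 6429 and 6520.1 in the HFD f/f pair and 5317 and 4267 in the HFD LKO pair. The f/f-labelled libraries overlapped between diets, and only the HFD LKO pair was below all others. The difference between diets was -0.06 (SE 0.16, adjusted p = 0.842) and -0.24 without normalization.

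Mup20 was at 5879 and 5023 FPKM in the CD f/f pair, 4885 and 5364 in the CD LKO pair, 5363 and 3767 in the HFD f/f pair and 2858 and 2172 in the HFD LKO pair. As for Mup3, the HFD LKO pair was below the other 6. The difference between diets was -0.33 (SE 0.19, adjusted p = 0.310), whereas without normalization it was -0.66 (adjusted p = 0.0359) and with median centring -0.63 (adjusted p = 0.0428). Scaling matters here because quantile normalization raised the HFD minus CD difference of the 83 tested genes with a mean FPKM of 1000 or more by a median of 0.22 against no normalization. Mup3, Mup7, Mup10 and Mup20 are among those genes, and Mup20 was called lower under 2 of the 3 other scalings.

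Mup10 was the second most abundant of the 10 genes. Its FPKM was 4032 and 7147 in the CD f/f pair, 5806 and 5241 in the CD LKO pair, 4862 and 4396 in the HFD f/f pair and 4071 and 4828 in the HFD LKO pair. The groups overlapped, and the difference was 0.00 (SE 0.18, adjusted p = 0.996, 95% interval -0.42 to 0.42) with quantile normalization and -0.27 without normalization, so that its direction depended on the scaling.

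Mup7 was at 5448 and 8270.1 FPKM in the CD f/f pair, 5627 and 7080 in the CD LKO pair, 6491 and 2563 in the HFD f/f pair and 1232 and 2949 in the HFD LKO pair. Of the 4 HFD libraries 3 were below all CD libraries, and the first HFD f/f library lay among the CD values. The difference was -0.84 (SE 0.35, adjusted p = 0.182). Mup1 had the same outlying library, at 1313 and 1043 FPKM in the CD f/f pair, 741 and 1087 in the CD LKO pair, 1165 and 449 in the HFD f/f pair and 425 and 435 in the HFD LKO pair (difference -0.75, SE 0.31, adjusted p = 0.170).

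Mup19, the gene with no window of its own, had the widest values. It was at 85.3 and 925 FPKM in the CD f/f pair, 4402 and 512 in the CD LKO pair, 43.9 and 31.9 in the HFD f/f pair and 25.2 and 643 in the HFD LKO pair. The 2 HFD LKO pair differed 25.4-fold. The difference between diets was -3.06 (95% interval -6.03 to -0.09, adjusted p = 0.169).

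The 4 calls for the diet rest on all 8 libraries. Without the second CD LKO library 0 of the 10 genes were called. Without either CD f/f library, without the second HFD f/f library or without either HFD LKO library 1 was called. Without the first CD LKO library 2 were called, and without the first HFD f/f library 3 were called. The direction of Mup2, Mup11, Mup12 and Mup21 was the same in all of these fits.

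Within 1 genotype label at a time the test had less reach. For HFD against CD in the f/f-labelled libraries 0 of the 10 genes passed the adjusted p in limma, beside 1.33% of all genes (82 lower and 73 higher, and 109 and 56 without normalization), and 4 were lower at an unadjusted p of 0.05, beside 9.22% of all genes. These were Mup2 (-1.30, SE 0.48), Mup11 (-1.19, SE 0.31), Mup12 (-1.10, SE 0.35) and Mup21 (-0.70, SE 0.23), with adjusted p from 0.117 to 0.212. In the LKO-labelled libraries 0 passed the adjusted p, beside 3.02% of all genes (168 lower and 183 higher, and 239 and 136 without normalization), and 5 were lower at the unadjusted p, beside 9.69% of all genes. These were Mup11 (-1.42, SE 0.31), Mup12 (-1.43, SE 0.35), Mup2 (-1.62, SE 0.48), Mup21 (-0.82, SE 0.23) and Mup7 (-1.45, SE 0.50), with adjusted p from 0.0652 to 0.166. Mup20 was at -0.07 (SE 0.27) under the f/f label and -0.60 (SE 0.27) under the LKO label. All 10 genes had a negative value under the LKO label, beside 48.2% of all genes, and 8 under the f/f label, beside 47.4%. By deposited FPKM, 9 of the 10, all but Mup19, had both HFD values below both CD values in the LKO-labelled libraries, beside 30.2% of all genes. In the f/f-labelled libraries 5 did, beside 27.6%. Under the LKO label quantile normalization raised the HFD minus CD difference of the 83 genes with a mean FPKM of 1000 or more by a median of 0.26. Mup3 and Mup10, both among the 9, had fitted values of only -0.18 and -0.13 there. For the difference between the f/f and LKO labels the smallest adjusted p of the genotype by diet interaction was 0.677, and no difference between the labels was detectable.

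**Figure D4:**
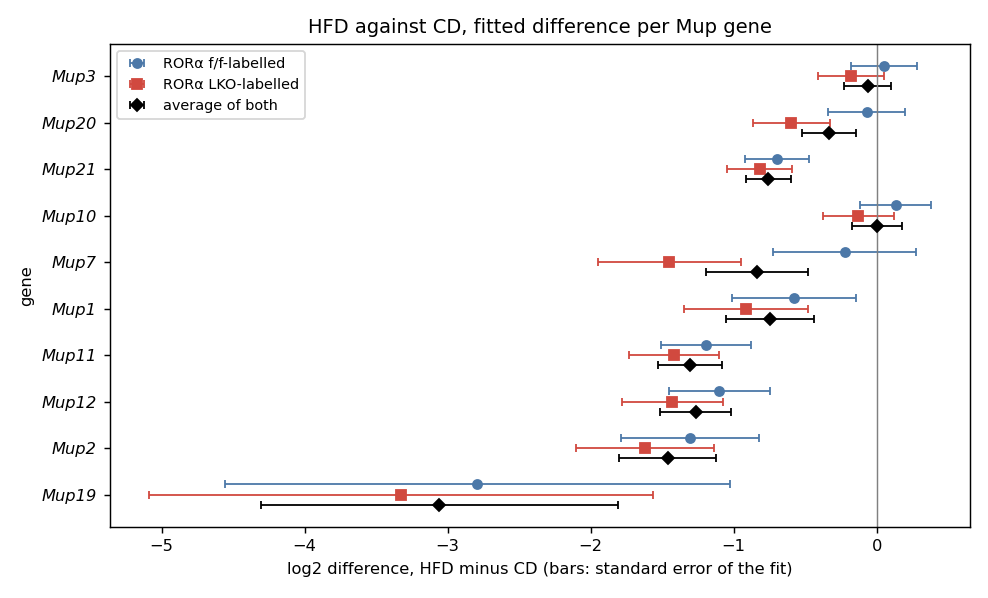
Fitted log2 difference, HFD minus CD, for each Mup gene in the f/f-labelled libraries, the LKO-labelled libraries and their average, with bars for the standard error of the limma fit. The averages of Mup2, Mup11, Mup12 and Mup21 lie between -1.46 and -0.76, those of Mup3 and Mup10 lie near 0, and the bars of Mup19 are the widest.

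The second question was whether hepatic deletion of RORα changed the MUPs. On the HFD the summed FPKM was lower under the LKO label, with a ratio of 0.69 and no overlap between the 2 pairs of libraries, and on the CD the ratio was 0.97 and the pairs overlapped. Without Mup19, which was at 4402 FPKM in the first CD LKO library, the CD ratio was 0.90 and the pairs did not overlap (26993 and 30241 FPKM against 24633 and 26900 FPKM), and the HFD ratio was 0.68, again with no overlap. On the HFD the ratio was 0.66 for Mup3, Mup20 and Mup21 summed, with no overlap, and 0.72 for the 7 central genes, with overlap, and the sum over all 48 Mup rows gave 0.71 with no overlap. The first HFD f/f library, at 25723, lay close to the CD values, and leaving it out brought the ratio to 0.82. On the CD the ratio was 0.91 without the first f/f-labelled library and 1.04 without the second.

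None of the 10 genes passed the adjusted p for LKO against f/f on the HFD in limma, beside 0.043% of all genes tested, and the smallest adjusted p was 0.467. At an unadjusted p of 0.05 there were 2, both lower, beside 4.12% of all genes lower, namely Mup12 (-0.95, SE 0.35) and Mup11 (-0.79, SE 0.31). By deposited FPKM, 6 of the 10 genes had both LKO-labelled libraries below both f/f-labelled libraries, which 23% of the genes tested showed. In the fit 8 of the 10 had a negative value, beside 50.2%. For Mup20, the darcin gene, the difference was -0.60 (SE 0.27, adjusted p = 0.555) and -0.85 without normalization (adjusted p = 0.281). Mup7 was at -1.10 (SE 0.50), Mup1 at -0.70 (SE 0.43), Mup21 at -0.39 (SE 0.23), Mup2 at -0.30 (SE 0.48) and Mup3 at -0.22 (SE 0.23). Mup10 was at 0.06 (SE 0.25), with a value of -0.06 without normalization, and Mup19 at 1.86 (SE 1.77). The median over the 10 genes was -0.49 and that over all genes 0.00.

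On the CD 0 of the 10 genes passed the adjusted p in limma, beside 0.0172% of all genes, and 0 passed an unadjusted p of 0.05, beside 12.3% of all genes. Mup11 (-0.56, SE 0.31) and Mup12 (-0.62, SE 0.35) had adjusted p of 0.514 and 0.520. With Mup3 they made up the 3 genes whose CD LKO pair was below the CD f/f pair in deposited FPKM, which 22.6% of the genes tested showed. The fitted difference of Mup3 was 0.006 (SE 0.23). Mup19 was at 2.39 (SE 1.77). The remaining 7 genes, Mup3 among them, had values from -0.36 to 0.32, and the median of the 10 was -0.03.

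Averaged over both diets, 0 of the 10 genes passed the adjusted p for LKO against f/f, beside 0.103% of all genes, and 2, Mup11 (-0.67, SE 0.22) and Mup12 (-0.79, SE 0.25), were lower at an unadjusted p of 0.05, beside 6.3% of all genes. For the genotype by diet interaction 0 passed the adjusted p, beside 0.0344% of all genes, and 0 passed an unadjusted p of 0.05, beside 8.35% of all genes. Its value was negative for all 10 genes, between -1.23 for Mup7 and -0.12 for Mup21, and for 49.1% of all genes tested. For Mup20 it was -0.53 with a 95% interval of -1.43 to 0.38, so that a sizeable difference between the diets could not be detected at this number of libraries.

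For the 38 other Mup rows the summed FPKM was 10589, 15925, 14850.2 and 10481 in the CD libraries and 7181, 2778, 4233 and 3527 in the HFD libraries, a ratio of 0.34 with no overlap. Of the 19 other rows tested, 5 were called lower and 0 higher for HFD against CD averaged over genotypes, beside 4.86% of all genes called lower. Another 4, all pseudogenes, had positive values that did not pass (0.08 to 1.05). The 5 most abundant were Mup14, Mup17, Mup15, Mup16 and Mup18, with mean FPKM of 3138, 2174, 1533, 727 and 352. Mup14 fell (95% interval -1.83 to -0.57, adjusted p = 0.0383) and Mup17 by 1.29 (SE 0.30, adjusted p = 0.0445) on the log2 scale. Mup15 (-1.47, adjusted p = 0.0917), Mup16 (-2.96, adjusted p = 0.0963) and Mup18 (-0.46, adjusted p = 0.782) did not pass.

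Sex-biased liver genes are the setting in which MUPs are usually read, since the same growth hormone pulses through STAT5 maintain many male-biased genes and hold down female-biased ones. Of 14 male-biased genes, all tested, 9 fell and 0 rose for HFD against CD averaged over genotypes, beside the 4.86% of all genes called lower. The 9 were Selenbp2 (-2.25), Serpina1e (-2.05), Ugt2b38 (-2.92), Cyp4a12b (-1.59), Cyp4a12a (-1.49), Cyp7b1 (-1.37), Nudt7 (-1.02), Gstp1 (-0.92) and C6 (-0.85), and all 9 were also called lower with each of the 3 other scalings. Serpina1e, an α1-antitrypsin gene, was at 7083, 5184, 5276 and 6070.0 FPKM in the CD libraries and at 2779, 1413, 779 and 751 in the HFD libraries. Cyp4a12a, a fatty acid hydroxylase of male liver, was at 138, 122, 114 and 173 FPKM on the CD and 47.8, 42.5, 36.5 and 57.2 on the HFD. Like Mup21, both had no HFD library that reached a CD library. Ugt2b38 passed the filter on low values only through its CD libraries, the diet where it was high. It was at 4.42 to 19.3 FPKM there and at 0.210 to 0.697 FPKM on the HFD. Hsd3b5, a male-biased steroid dehydrogenase, was lower on the HFD in the LKO-labelled libraries (-0.999, SE 0.18, adjusted p = 0.0426), a call that was lost when scaled to the summed FPKM without Mup rows, and at 0.25 (adjusted p = 0.498) in the f/f-labelled libraries.

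Of 20 female-biased genes 9 were tested, and 3 rose and 1 fell on the HFD, beside 9.89% of all genes called in either direction. Cyp2b9 rose by 3.07 (SE 0.33, adjusted p = 0.00586), from between 2.75 and 6.74 FPKM on the CD to between 28.6 and 69.9 FPKM on the HFD. Abcd2, a peroxisomal transporter of very long-chain fatty acids, rose by 1.57 (adjusted p = 0.00433), and Cyp2b13 by 1.55 (adjusted p = 0.0350). Cyp2b13 passed the filter on low values only through its HFD libraries, the diet where it was high. It was at 1.07 to 3.81 FPKM there and at 0 to 0.283 FPKM on the CD. Cyp2b10, a target of the receptor CAR, fell by 1.55 (adjusted p = 0.00331). Of 16 tested genes of the growth hormone axis and its regulators, only Hnf4a passed, beside the same 9.89% of all genes. It was at 0.28 (SE 0.07, adjusted p = 0.0475) and did not pass with any of the 3 other scalings. Ghr, the growth hormone receptor, was at 230 to 252 FPKM on the CD and 195 to 234 FPKM on the HFD, and Stat5b was at 8.33 to 9.74 and 8.67 to 9.56 FPKM. Over the male-biased, female-biased and growth hormone axis lists combined, the largest differences for LKO against f/f on the HFD were those of Cyp17a1 (-1.55, adjusted p = 0.468), Socs2 (-1.51, adjusted p = 0.397) and Onecut1 (-1.36, adjusted p = 0.504), none of which passed. The 3 largest for HFD against CD in the f/f-labelled libraries were Ugt2b38 (-3.20, adjusted p = 0.0437), Cyp2b9 (2.95, adjusted p = 0.0421) and Selenbp2 (-2.08, adjusted p = 0.0640).

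Some markers of other liver cells differed with diet beside the MUPs, and single genes carried their sums. The summed FPKM of 5 stellate cell markers was 10.5 to 13.6 on the CD and 15.0 to 21.2 on the HFD. Of this sum Reln alone was 6.38 to 9.15 and 10.1 to 14.4. Des, at 0.517 to 0.732 and 0.805 to 1.10, did not overlap between diets either, while Lrat, Col1a1 and Pdgfrb overlapped. The sum of 4 adipocyte markers, 6.45 to 7.78 on the CD and 8.90 to 10.4 on the HFD, was nearly all Fabp4, and Adipoq, Plin1 and Lep were at most 0.377, 0.0537 and 0.0227 FPKM in any library. Markers of Kupffer cells and macrophages (6) summed to 53.1 to 66.0 on the CD and 40.1 to 71.3 on the HFD. Of 4 exocrine pancreas markers 3 were at 0 in all libraries, and Cela1, an elastase gene, separated by label, with 9.85 to 14.01 FPKM in the f/f libraries and 4.62 to 6.18 FPKM in the LKO libraries. The part of these cells in the MUP values was not tested. Of the 7 hepatocyte markers other than albumin, 3 had every HFD library below every CD library, which 10.3% of the tested genes showed. These are deposited FPKM, and the direction of abundant genes depended on the scaling. For the 83 genes with a mean of 1000 or more, the median HFD minus CD difference was -0.13 without normalization and 0.14 with quantile normalization. Tat, a tyrosine aminotransferase, was at 480 to 1036 FPKM on the CD and 250.4 to 322 FPKM on the HFD, Cps1, of the urea cycle, at 669 to 793 and 455 to 666 FPKM, and Apoa1, the main apolipoprotein of high-density lipoprotein, at 5079.9 to 6289.8 and 4407 to 4869 FPKM. The other 4, Ttr, Serpina1c, Hnf4a and Ass1, overlapped between diets.

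The genes whose pattern over the 8 libraries was nearest to that of the summed MUPs were low in abundance, by a measure that mixed 2 scales. The sum was of deposited FPKM, whereas the single genes were quantile normalized. Against no normalization, that step raised the HFD minus CD difference by a median of 0.22 for the 83 genes with a mean FPKM of 1000 or more. Over all genes the median was 0.03. This places abundant genes farther from the sum, and its part in the ranking was not tested. By the root mean square difference of centred log2 values, Serpina12, the serpin vaspin, was nearest with 0.11, followed by Fkbp11, a prolyl isomerase of the secretory pathway, with 0.14, Grm8 with 0.14, a gene without a symbol in the annotation (ENSMUSG00000082946) with 0.16, and Sbk1 with 0.16. Serpina12 was at 5.13, 6.18, 4.27 and 5.36 FPKM on the CD and 4.87, 2.96, 2.24 and 2.63 on the HFD, with the first HFD f/f library, as for the MUP sum, near the CD values. Fkbp11 was at 11.1, 11.9, 8.15 and 8.94 FPKM on the CD and 8.39, 5.71, 3.98 and 4.72 on the HFD. Grm8, at 0.183 to 1.25 FPKM, and the gene without a symbol, at 0.263 to 1.61 FPKM, were near the filter on low values. At such levels log2(FPKM + 1) understates changes, and its part in their closeness to the sum was not tested. Of the 10 genes themselves Mup21 and Mup20 were nearest to the sum, each with 0.33, and Mup19 was farthest with 2.31.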

How the data were processed

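Liver RNA of 8 libraries (2 per group, pooled livers of 2 mice each) was sequenced. The authors trimmed reads with cutadapt 1.0, aligned them to GRCm38 with TopHat2 2.0.7 and estimated FPKM with Cufflinks, and the deposited FPKM values are not counts, so that no count test was run and depth is unknown here. How shared reads were assigned is not given in the sources used here. Symbols came from GENCODE M21. The 11634 genes that exceeded an FPKM of 1 in any library were transformed to log2(FPKM + 1), so that changes of low genes are understated, and quantile normalized, the filter and normalization of the study's methods. One limma 3.58.1 fit (R 4.3.3) of the 4 group means, with a mean-variance trend, 4 residual and 2.8 prior degrees of freedom and Benjamini-Hochberg adjustment over all genes, replaced the study's permutation procedure. Where nothing ties libraries to separate batches, p-values measure the spread between pools of mice. Group means are given ± SD of FPKM. Intervals are at 95%. The steps were tested on simulated data. Coding sequences were aligned globally (biopython 1.88), since no protein table was used here. The members and lists were chosen with earlier results of these data known. Named genes are the 10 members, the 5 most abundant other Mup rows, the 5 genes nearest to the members' sum, Rora, and sex-biased or growth hormone genes that passed in any comparison or had the 3 largest changes in 2 comparisons. Others were named after their values were seen. Alternatives were other scalings, pseudocount and filters, a replicate block, no trend, 2 groups alone, each library left out, and, added after seeing the data, genes above 0 in all 8 libraries and the sum without Mup19.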

Additional observations from a re-analysis of the deposited data

How the results depend on the processing

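For HFD against CD averaged over genotypes, 4 of the 10 genes were called, and 5 without normalization or with median centring, 4 with a pseudocount of 0.1, and 3 without the trend. Scaling to the summed FPKM without Mup rows left 2, and testing all 20816 genes above 0 in at least 1 library left 1. Without 1 library the count ran from 0 to 3. For HFD against CD in the LKO-labelled libraries 0 were called, but 1 without normalization (Mup20), 2 with FPKM above 1 in all 8 libraries and 2 with genes above 0 in all 8 libraries (Mup11 and Mup12 in both). In the other comparisons the count was 0 under every setting run. The replicate numbers were not shown to pair the libraries (correlations of same-numbered deviations from -0.004 to 0.149), and with the replicate block the same 4 genes were called for the diet and 0 in the other comparisons.

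Mup10 changed sign. For the averaged diet comparison it was -0.27 without normalization, -0.24 with median centring, -0.15 scaled to the summed FPKM without Mup rows and -0.039 with FPKM above 1, or above 0, in all 8 libraries, and -0.19 to 0.20 without 1 library. For LKO against f/f on the HFD it was -0.060, -0.053 and -0.050 under the 3 scalings and -0.038 to 0.17 without 1 library. Without 1 library Mup3 ran from -0.18 to 0.075 for the averaged diet comparison, Mup20 from -0.42 to 0.30 for the diet in the f/f-labelled libraries, and on the HFD between labels Mup2 ran from -0.69 to 0.088 and Mup19 from -0.50 to 4.22.

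The ratios of the summed FPKM moved by more than the spread between replicates in these cases. Scaling gave 1.14 for LKO against f/f on the CD and 0.89 for HFD against CD under the f/f label. Summing every Mup row gave 0.64 for the diet under the f/f label and 0.47 under the LKO label, where leaving out Mup3, Mup20 and Mup21 also gave 0.47. Without 1 library the ratio for LKO against f/f was 0.59 to 0.82 on the HFD and 0.91 to 1.04 on the CD, and that for the diet was 0.64 to 0.88 under the f/f label and 0.51 to 0.57 under the LKO label. With 2 libraries per group the spread rests on few differences, and read depth is unknown. The cause of these shifts was not tested.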

Other observations

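Other lipocalins shared the direction of the MUPs in part. Of 17 listed genes 9 were tested, and 3 were called lower and 0 higher for HFD against CD averaged over genotypes, beside 4.86% of all genes called lower. Orm1 and Orm2 encode acid glycoproteins of the acute phase, and Apom encodes the lipocalin of high-density lipoprotein that carries sphingosine-1-phosphate. Orm1 was at 816, 785, 989 and 794 FPKM in the CD libraries and 380, 549, 419 and 399 in the HFD libraries (-0.83, SE 0.11, adjusted p = 0.0104). Orm2 was at 37.3, 33.3, 130 and 65.3 FPKM on the CD and 9.18, 20.8, 16.3 and 20.8 on the HFD (-1.73, SE 0.30, adjusted p = 0.0185). Apom was at 106 to 112 FPKM on the CD and 66.3 to 96.0 on the HFD (-0.40, SE 0.05, adjusted p = 0.00936, and 0.0974 when scaled to the summed FPKM without Mup rows). For all 3 the diets did not overlap.

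Abundant secreted liver proteins gave no direction that held under all scalings. Of 20 listed genes 2 were called lower (Fga and Hpx) and 4 higher (Apoh, Gc, Ttr and Serpina1b) for HFD against CD averaged over genotypes. Of all genes 9.89% were called in either direction and 4.86% lower. Without normalization 6 of the 20 were called lower and 0 higher, beside 703 lower and 397 higher of all 11634 genes. Gc, the vitamin D binding protein, was at 0.31 with quantile normalization and -0.19 without, and its deposited FPKM was lower in all 4 HFD libraries (2649 to 2892) than in all 4 CD libraries (3029 to 3279). Hpx, the haem-binding hemopexin, was lower under each scaling, at -0.43 with quantile normalization and -0.75 without.

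Other near-identical copies were high in the same library as Mup19. In the first CD LKO library Mup16 was at 4707 FPKM, Mup13 at 868 and Mup18 at 1027, and in the second at 176, 30.2 and 68.5. The sum of all 48 Mup rows was 43885 and 37893 FPKM in these libraries.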
